A study of Homo sapiens with 52 samples.

Results

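The claudins CLDN1, CLDN3, CLDN4, CLDN6, CLDN7 and CLDN10, together with occludin (OCLN) and the scaffold protein TJP1 (ZO-1), were followed on expression arrays of human embryonic stem cells. All probe sets that the array annotation assigns to these 8 symbols alone were taken, which gave 15 probe sets for 8 genes, out of 34491 probe sets assigned to a single gene and 17518 genes in all. All 15 passed the filter on low values, which asked for a present call (detection p under 0.05) on at least 2 of 26 arrays, and 21528 probe sets passed it in all. H1 cells were sampled daily from day 0 to day 10 in 5 µM retinoic acid, and undifferentiated H9 and HUES8 cells were sampled without it. All 3 lines are established human embryonic stem cell lines and were grown in mTeSR medium on Matrigel. Each of the 13 groups had 2 biological replicates, and each replicate was hybridised to an A chip and a B chip, making 52 arrays. There was no H1 culture without retinoic acid after day 0, so the agent and time in culture cannot be told apart.

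Tight junctions seal neighbouring epithelial cells at the apical end of their contact. Claudins are membrane proteins with 4 spans whose extracellular loops form the seal and set which ions pass it, occludin is a further membrane protein of the junction, and ZO-1 is the scaffold under the membrane that ties them to actin. Embryonic stem cells grow as epithelial colonies and carry such junctions before they differentiate.

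The deposited values were array signals scaled to a common level, with a detection p for each probe set. The mean signal after trimming lay between 500.2 and 500.3 on all A chips, and between 44.8% and 54.2% of their probe sets were called present. On the B chips 31.1% to 40.1% were present. NANOG, a pluripotency factor, was present on all 6 undifferentiated arrays at signals from 4599 to 6017, and was not present on day 10 at 104 and 79.2. The labels and this marker went the same way. The ratio of 3′ to 5′ signal of ACTB on the A chip, a measure of RNA integrity, was 1.27 and 1.30 on day 0 and 1.45 and 1.89 on day 10. Differences below are on the log2 scale with their standard error (SE), from limma across all 21528 probe sets, and were called at a Benjamini-Hochberg adjusted p under 0.05. All 10 comparisons of a treated day with day 0 share the same 2 day 0 replicates. In these bulk samples fewer cells of a type and less RNA per cell cannot be told apart.

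Across the 11 H1 days, limma's F test called 6 of the 15 probe sets, from 5 genes, against 23.2% of all probe sets tested. The genes were CLDN1, CLDN3 (both probe sets), CLDN4, CLDN6 (probe set 237810_at) and OCLN (the dim probe set 235937_at). Over 32 alternatives the count ran from 4 to 7. The CLDN6 call was lost under 13 of them, among these control centring (adjusted p = 0.57), quantile normalization (0.060), the ACTB ratio as a covariate (0.065) and either day 10 replicate left out (0.14 and 0.13). The call of CLDN3 203954_x_at was lost with the ACTB covariate (adjusted p = 0.052), and that of OCLN 235937_at without either day 0 replicate (0.095 and 0.080). CLDN4 and CLDN3 rose, CLDN7 was called higher on days 9 and 10 by a small difference, CLDN1 and CLDN10 were called lower on day 10, and neither TJP1 probe set was called on any day.

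**Figure D1:**
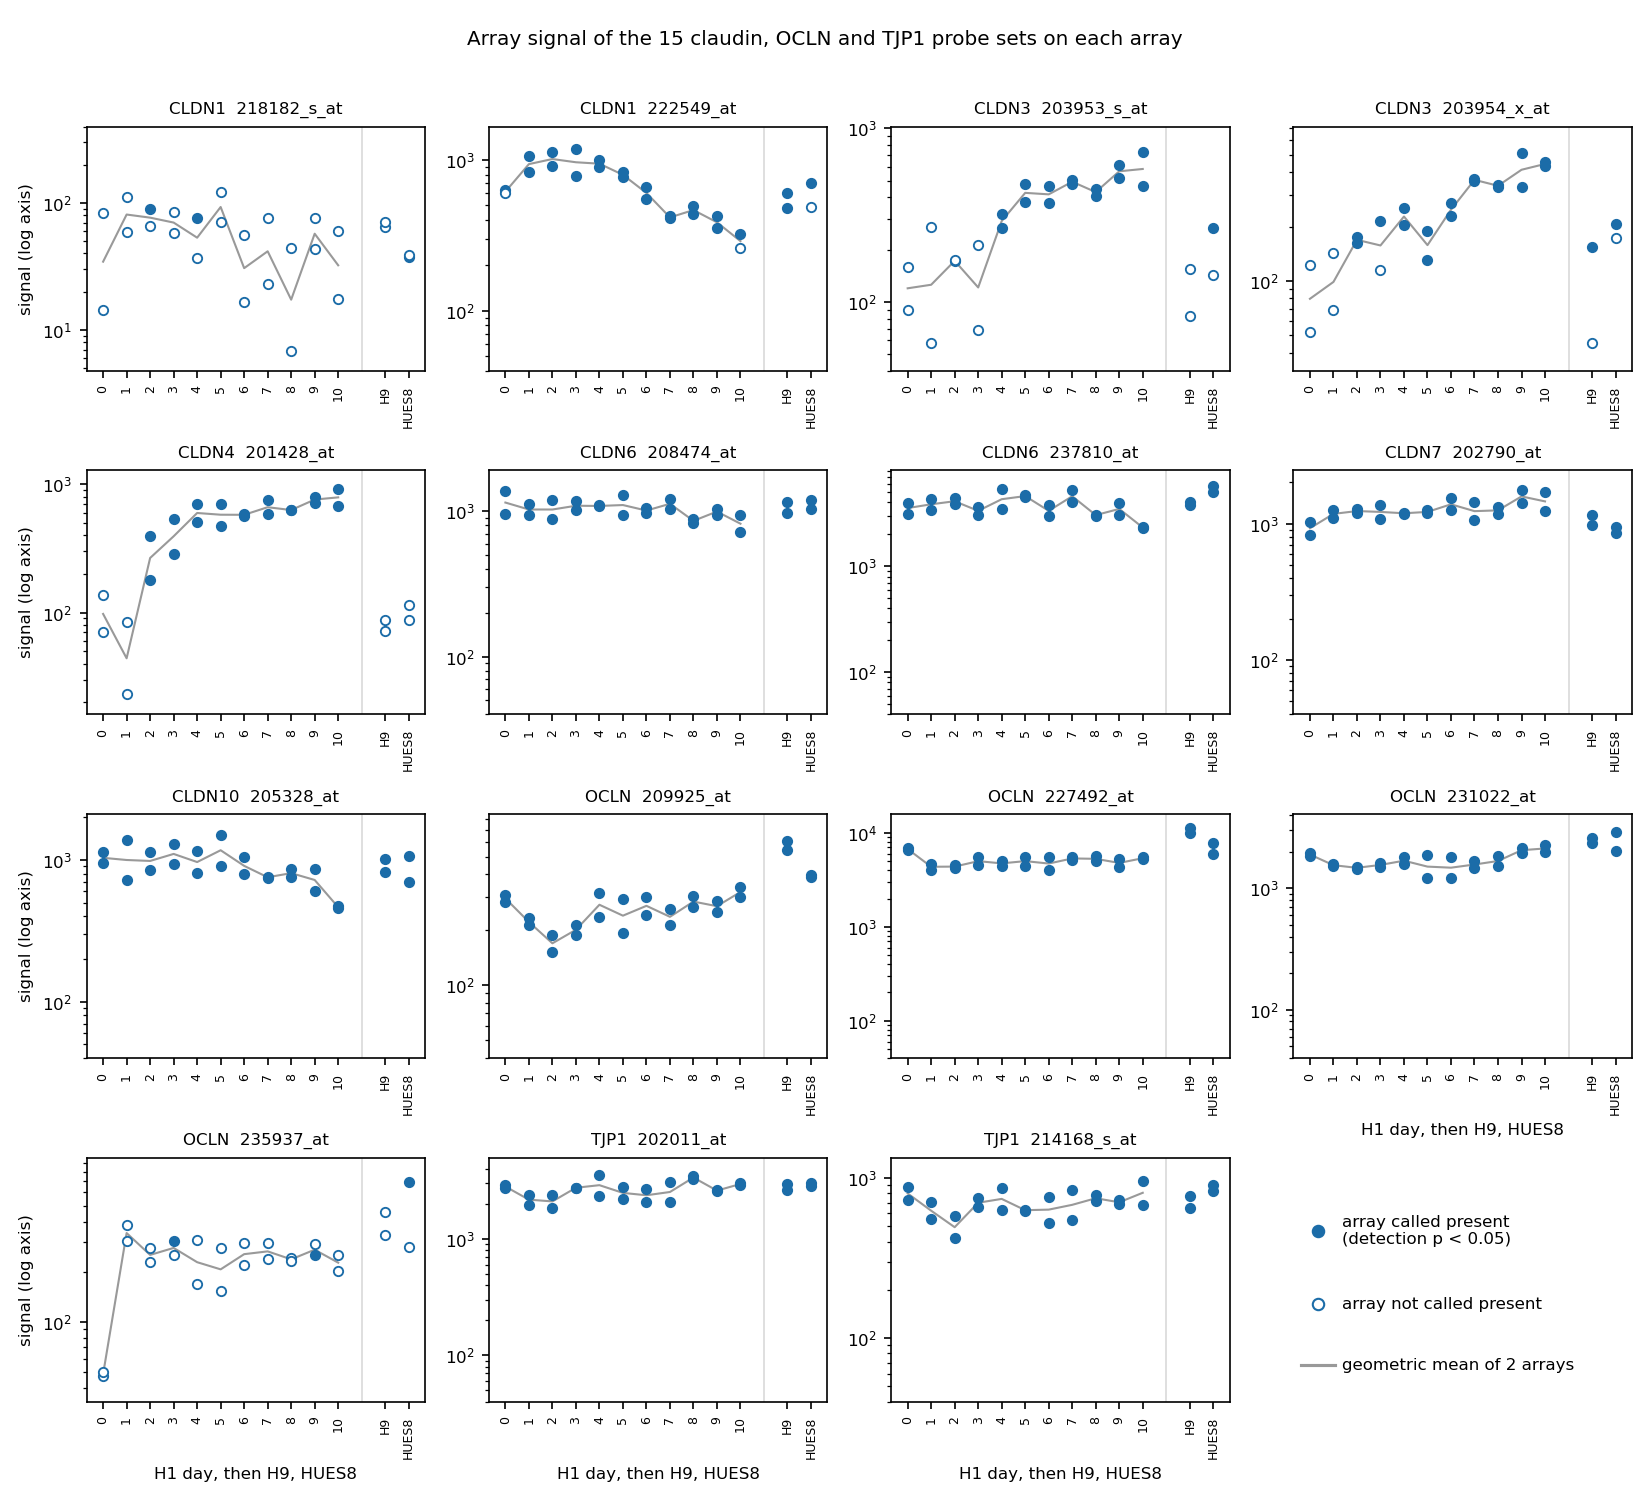
Array signal (log axis) of the 15 probe sets on every array, by H1 day from 0 to 10 and then for H9 and HUES8. Each point is an array, filled where it was called present, and the grey line joins the geometric means of the 2 replicates. CLDN4 runs from 135.9 and 70.03 on day 0 to 677 and 916 on day 10, while CLDN1 (222549_at) runs from 627 and 604 to 324 and 259.

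CLDN4, a claudin of many simple epithelia, gave the widest swing of the group means. Its probe set 201428_at (A chip) was present on none of the 6 undifferentiated arrays, whose signals ran from 70.03 to 135.9 with a median of 88.1. On day 1 it read 23.0 and 84.3, again without a present call. From day 2 it was present on all 18 arrays, at 392 and 181 on day 2, 537 and 287 on day 3, and 698 and 508 on day 4. Both arrays of each day from day 2 on lay above both day 0 arrays. Signals were 475 and 702 on day 5, 567 and 586 on day 6, 583 and 748 on day 7, and 627 and 629 on day 8. They reached 717 and 800 on day 9 and 677 and 916 on day 10, so the arrays of day 10 overlapped those of days 4, 5, 7 and 9.

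The day 2 difference of CLDN4 was 1.45 ± 0.48 (SE), with a 95% interval of 0.45 to 2.44, and was not called (adjusted p = 0.12). On day 3 it was 2.01 ± 0.48 (adjusted p = 0.016), against 4.25% of all probe sets called on that day. That call was lost without day 0 replicate 2 (1.53, adjusted p = 0.23) and without day 3 replicate 1 (1.55, adjusted p = 0.19). On day 4 the difference was 2.61 (adjusted p = 0.0013) and on day 10 it was 3.01 ± 0.48 (adjusted p = 0.00011). Because day 0 was not above background, the day 10 level is given as a bound, at least 8.08-fold higher by the mean signals. This bound does not cover the spread between replicates. It was 5.80-fold without day 0 replicate 2 and 11.3-fold without day 0 replicate 1. The calls of days 4 to 10 held under all 14 alternatives run for each, and at day 10 the difference ranged from 2.54 to 3.49. With the ACTB ratio of each array as a covariate it was 2.84 (adjusted p = 0.0085). Day 10 and day 5 differed by 0.45 ± 0.48, with a 95% interval of −0.54 to 1.44 (adjusted p = 0.60).

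CLDN3, a sealing claudin often found together with CLDN4, was first called on day 5, after CLDN4. Its 2 probe sets, 203953_s_at and 203954_x_at, are of design types that can also bind related transcripts, and no other probe set assigned to CLDN3 alone was on the chips. Probe set 203953_s_at read 89.7 and 159 on day 0 and was present on neither array. It stayed without a present call on days 1 to 3, where signals ran from 58.2 to 270, and was present on all 14 arrays from day 4 on. Day 4 read 322 and 265, day 5 read 480 and 376, and day 6 read 465 and 373. Days 7, 8 and 9 read 506 and 479, 410 and 449, and 618 and 518, and day 10 read 464 and 733. From day 4 on no array overlapped day 0. Probe set 203954_x_at read 122 and 52.04 on day 0 and was present on neither array. It was present on both arrays of day 2 at 162.1 and 176.1, above both day 0 arrays, which is the day on which CLDN4 was first present. Day 3 read 214 and 116, the latter not present and below one day 0 array, and day 4 read 253 and 204. It read 131 and 190 on day 5, 269 and 228 on day 6, and 456.5 and 433 on day 10.

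The difference of 203953_s_at was called from day 5 (1.83 ± 0.56, adjusted p = 0.045) to day 10 (2.29 ± 0.56, adjusted p = 0.0054). The difference of 203954_x_at was called from day 6 (1.64 ± 0.48, adjusted p = 0.031) to day 10 (2.48 ± 0.48, adjusted p = 0.00089). By the mean signals, the levels on day 10 were at least 4.88-fold and at least 5.58-fold higher than on day 0, where neither probe set was above background. Without day 0 replicate 2 the bound of 203954_x_at was 3.64-fold, and without day 0 replicate 1 it was 8.54-fold. The bound of 203953_s_at was 3.66-fold without day 0 replicate 1 and 6.51-fold without day 0 replicate 2. For 203953_s_at the day 10 call was lost without day 0 replicate 1 (1.87, adjusted p = 0.071) or day 10 replicate 2 (1.96, adjusted p = 0.067), and its day 5 and day 6 calls were lost without any one of the 4 replicates concerned. Those of days 5, 6 and 8 were also lost with the ACTB covariate (adjusted p = 0.057, 0.081 and 0.068), with control centring and without the intensity trend. On days 7, 8 and 9 its call was lost without day 0 replicate 1 (adjusted p = 0.17, 0.24 and 0.095), and on each of these days also without at least 1 replicate of the day itself. The calls of 203954_x_at on days 6, 7 and 8 were lost without day 0 replicate 2 (adjusted p = 0.33, 0.095 and 0.12). Its day 6 call was also lost without either day 6 replicate, without the filter, with control centring and with the ACTB covariate (adjusted p = 0.084). The day 10 call of 203954_x_at held under all alternatives run. The difference between the time courses of CLDN3 and CLDN4 was not tested.

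CLDN3 and CLDN4 are neighbouring protein-coding genes on chromosome 7 in the RefSeq annotation, with ABHD11 before CLDN3 and METTL27 after CLDN4. Over the 13 group means their log2 signals correlated at r = 0.84, a description over groups that share the same arrays. Their promoters are shown because the genes lie side by side and both rose. Each is the 250 bases before the annotated start, on the gene's strand, from RefSeq on GRCh38.p14, with motif matches in capitals. The CLDN4 stretch is chr7:73830746-73830995 on the plus strand and the CLDN3 stretch is chr7:73770271-73770520 on the minus strand.
CLDN4 promoter: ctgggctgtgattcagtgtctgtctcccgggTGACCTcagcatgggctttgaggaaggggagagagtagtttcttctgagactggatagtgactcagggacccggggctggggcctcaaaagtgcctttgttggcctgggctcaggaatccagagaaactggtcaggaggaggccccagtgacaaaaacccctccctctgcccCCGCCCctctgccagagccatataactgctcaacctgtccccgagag
CLDN3 promoter: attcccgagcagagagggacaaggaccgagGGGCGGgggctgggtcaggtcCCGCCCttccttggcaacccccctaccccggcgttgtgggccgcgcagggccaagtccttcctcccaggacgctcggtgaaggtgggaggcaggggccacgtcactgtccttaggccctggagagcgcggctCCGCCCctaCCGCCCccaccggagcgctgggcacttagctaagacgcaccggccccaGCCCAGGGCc
The motifs searched on both strands were AACCGGTT (grainyhead factors), CAGGTG (the E2 box of SNAI and ZEB factors), GGGCGG (GC box), AGGTCA (the hexamer of nuclear receptors), GCCNNNGGC (TFAP2 factors) and TATAAA. No matches overlapped in any of the 14 promoters of the 8 genes. CLDN4 held 1 GC box and 1 AGGTCA, and CLDN3 held 4 GC boxes and 1 TFAP2 motif. Of 35116 promoters in the table, 42.6% held a GC box, 12.1% AGGTCA, 19.8% the TFAP2 motif, 0.117% AACCGGTT and 10.7% TATAAA. AACCGGTT and TATAAA occurred in 0 of the 14 promoters. These are letter matches in short windows and say nothing of binding.

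**Figure D2:**
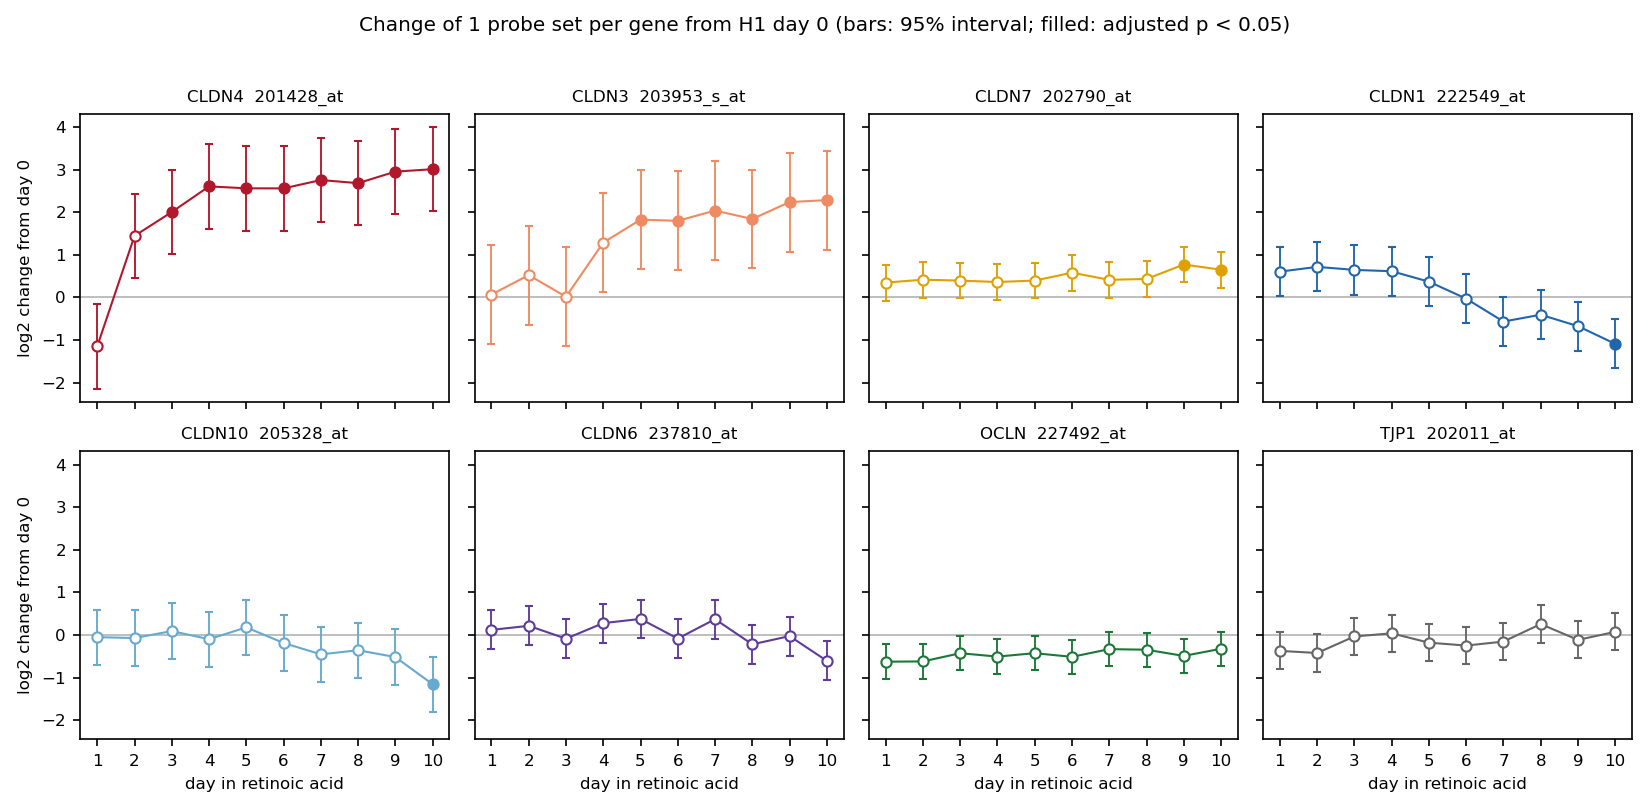
Difference from H1 day 0 (log2 scale) on days 1 to 10 for 1 probe set per gene, with 95% intervals; filled points passed an adjusted p of 0.05. CLDN4 is called from day 3 and CLDN3 from day 5, CLDN7 on days 9 and 10, and CLDN1 and CLDN10 on day 10 only, while the probe sets drawn for CLDN6, OCLN and TJP1 are not called on any day.

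CLDN7, a claudin found along the side membranes of epithelial cells, was present on all 26 arrays with probe set 202790_at. It read 1034 and 828 on day 0, from 944 and 860 in HUES8 to 1157 and 980 in H9, and from 1062 to 1759 over days 1 to 10. All 20 treated arrays lay above both day 0 arrays, from 1264 and 1097 on day 1 to 1422 and 1759 on day 9 and 1238 and 1708 on day 10. The difference was 0.77 ± 0.20 on day 9 (adjusted p = 0.010) and 0.65 ± 0.20 on day 10 (adjusted p = 0.025), a rise of 1.71-fold and 1.57-fold. Neither held without day 0 replicate 2, where the adjusted p was 0.13 and 0.22. The day 9 call was also lost without day 9 replicate 2 (adjusted p = 0.12), and the day 10 call without day 10 replicate 2 (0.42, adjusted p = 0.27). The F test over days did not call CLDN7 (adjusted p = 0.24).

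A CLDN7 promoter is shown for its repeated E2 boxes, in the 250 bases before the start at chr17:7262479-7262728 on the minus strand of GRCh38.p14, with all motif matches in capitals.
CLDN7 promoter: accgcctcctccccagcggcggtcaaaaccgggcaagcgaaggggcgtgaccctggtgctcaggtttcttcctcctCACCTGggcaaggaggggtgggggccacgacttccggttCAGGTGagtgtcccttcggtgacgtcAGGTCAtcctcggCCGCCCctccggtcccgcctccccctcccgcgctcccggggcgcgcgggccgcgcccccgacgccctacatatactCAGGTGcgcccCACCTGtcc
It held 4 CAGGTG matches, 1 GC box and 1 AGGTCA. The other annotated CLDN7 promoter, at chr17:7263214-7263463, held 0 CAGGTG and 1 AGGTCA. At least 1 CAGGTG stood in 17.5% of all promoters and at least 4 stood in 0.122%. The stretch shown was picked as the highest of the 14 promoters, so this share is a description. Of the 14 promoters of the 8 genes, 4 held CAGGTG, of which 2 belong to OCLN, 1 to TJP1 and 1 to CLDN7.

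CLDN1, a claudin needed for the skin barrier, had its lowest level on day 10. Probe set 222549_at (B chip) read 627 and 604 on day 0, where the array at 604 was not called present. It read 826 and 1064 on day 1, 912 and 1126 on day 2, and 782 and 1190 on day 3. On day 4 it read 894 and 996 and on day 5 it read 827 and 767, so both arrays of each of these days lay above day 0. None of these differences was called, the largest being 0.72 ± 0.28 on day 2 (95% interval 0.14 to 1.30, adjusted p = 0.20). Signals were then 666 and 547 on day 6, 409 and 423 on day 7, 493 and 438 on day 8, and 423 and 352 on day 9. On day 10 they were 324 and 259, the lowest of the 26 arrays, and the array at 259 was not called present.

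The fall of CLDN1 was called on day 10 against day 0 (−1.09 ± 0.28, adjusted p = 0.0070) and against day 5 (−1.46 ± 0.28, adjusted p = 0.0023). These are 2.13-fold and 2.75-fold lower levels. The first call was lost without day 10 replicate 2 (−0.93, adjusted p = 0.078) and when arrays were centred on control probe sets (−0.83, adjusted p = 0.056). The second was lost when only the 2 groups entered the fit (adjusted p = 0.064). The other CLDN1 probe set, 218182_s_at, was present on 3 of 26 arrays with signals from 6.82 to 121.1 and was not called on any day or by the F test (adjusted p = 0.52). For 222549_at the F test over days gave an adjusted p of 0.00011. The CLDN1 promoter is shown as that of a gene called lower on day 10. It is chr3:190322447-190322696 on the minus strand of GRCh38.p14 and holds 2 GC boxes, in capitals, and none of the other motifs. GC boxes stood in 10 of the 14 promoters of the 8 genes. CLDN6 held 2 with 1 TFAP2 motif, and 1 of the CLDN10 promoters held 3. Motif content was not tested against the direction of change.
CLDN1 promoter: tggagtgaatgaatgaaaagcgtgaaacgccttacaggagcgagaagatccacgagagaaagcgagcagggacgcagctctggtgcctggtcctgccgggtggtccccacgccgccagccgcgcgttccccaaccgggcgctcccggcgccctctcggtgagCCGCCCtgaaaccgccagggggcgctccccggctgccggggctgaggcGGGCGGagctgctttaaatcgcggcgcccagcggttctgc

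CLDN10, a claudin whose isoforms form ion-selective pores, was present on all 26 arrays (205328_at). It read 1132 and 948 on day 0 and stayed between 724 and 1513 over days 1 to 8 with wide gaps between replicates, such as 1513 and 908 on day 5. Day 9 read 601 and 869, and day 10 read 471 and 458, the lowest 2 of the 26 arrays. The day 10 difference was −1.16 ± 0.31 against day 0 (2.23-fold lower, adjusted p = 0.011) and −1.34 ± 0.31 against day 5 (adjusted p = 0.010). The F test over days did not call CLDN10 (adjusted p = 0.076). The call against day 0 was lost without day 0 replicate 1 (−1.03, adjusted p = 0.082), without day 10 replicate 2 (adjusted p = 0.059), and with the ACTB ratio as a covariate (adjusted p = 0.073). The call against day 5 was lost without day 5 replicate 1 (−0.97, adjusted p = 0.086) or day 10 replicate 2 (adjusted p = 0.068). CLDN1 and CLDN10 correlated at r = 0.86 over the 13 group means, again as a description.

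CLDN6, a claudin of embryonic and stem cell epithelia, was present on all 26 arrays with both probe sets. Probe set 237810_at (B chip) read 3137 and 3992 on day 0, from 2967 to 5358 over days 1 to 9, and 2290 and 2354 on day 10. The day 10 arrays were the lowest of the 26. The difference was −0.61 ± 0.22 against day 0 (95% interval −1.06 to −0.15, adjusted p = 0.052) and −0.98 ± 0.22 against day 5 (1.98-fold lower, adjusted p = 0.0073). With centring on control probe sets the latter was −0.60 (adjusted p = 0.16), and it was lost without day 5 replicate 2 (−0.96, adjusted p = 0.065) and when only those 2 groups entered the fit (adjusted p = 0.068). Probe set 208474_at (A chip) read 963 and 1372 on day 0 and 719 and 939 on day 10, a difference of −0.48 ± 0.21 that was not called (adjusted p = 0.12). Of the 15 probe sets, 3 were called lower and 0 higher on day 10 against day 5, beside 10.2% of all probe sets called, 5.89% lower and 4.35% higher. At an unadjusted p under 0.05 by limma, 3 were lower and 2 higher. CLDN3 probe set 203954_x_at differed by 1.49 ± 0.48 from day 5 to day 10 and was not called (adjusted p = 0.054).

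OCLN was measured by 3 probe sets that were present on all 26 arrays and by a dim one. The brightest, 227492_at (B chip), read 6604 and 6884 on day 0 and between 4058 and 5650 on all 20 treated arrays, so each treated array lay below both day 0 arrays. The difference was −0.63 ± 0.19 on day 1 (95% interval −1.03 to −0.22, adjusted p = 0.16) and −0.32 ± 0.19 on day 10 (adjusted p = 0.26), and no day was called. Probe set 209925_at read 284 and 308 on day 0, 188 and 151.05 on day 2, and 342 and 300 on day 10, and probe set 231022_at read 1849 and 1938 on day 0 and 1997 and 2260 on day 10. Neither was called on any day.

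The dim OCLN probe set 235937_at was called higher on all 10 days, but it was present on only 3 of 26 arrays. It read 47.1 and 49.6 on day 0 and 306 and 381.5 on day 1 with no present call on these 4 arrays. On day 10 it read 253 and 203, again not well above background, so no fold is given. It disagreed with the 3 probe sets that were present throughout. It was also the single probe set of the 15 that was called on day 1 and on day 2, when 0.985% and 3.05% of all probe sets were called.

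TJP1 was present on all 26 arrays with both probe sets and was called in no comparison. Probe set 202011_at read 2717 and 2894 on day 0 and 2989 and 2911 on day 10, and the 20 treated arrays ran from 1824 to 3554. The day 10 difference was 0.07 ± 0.21, with a 95% interval of −0.36 to 0.51. Probe set 214168_s_at read 725 and 879 on day 0 and 680 and 956 on day 10, a difference of 0.01 ± 0.25 with an interval of −0.51 to 0.54. The day 10 interval of CLDN4, 2.02 to 4.01, did not reach either of these, though a difference between the 2 genes was not itself tested.

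On day 10, 5 of the 15 probe sets were called higher and 2 lower, from 6 of the 8 genes, when 21.7% of all 21528 probe sets were called (11.3% higher and 10.4% lower). The 5 called higher were CLDN4, both of CLDN3, CLDN7 and the dim OCLN probe set, and the 2 called lower were CLDN1 and CLDN10. The count was 3 without day 10 replicate 2. The number called was 2 on days 3 and 4, 3 on day 5, 4 on days 6 to 8 and 5 on day 9. The matching shares of all probe sets were 4.25% and 6.40%, then 8.67%, then 11.8%, 13.1% and 13.9%, and 17.7%. The median difference over the 15 probe sets on day 10 was 0.07, against 0.03 over all probe sets tested.

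Between the undifferentiated lines only OCLN probe sets were called among the 15. CLDN4 read 88.2 and 71.6 in H9 and 88.1 and 115.1 in HUES8, without a present call, beside 135.9 and 70.03 in H1. CLDN3 probe set 203953_s_at read 82.6 and 155 in H9, neither present, and 143 and 268 in HUES8, where the array at 268 was present. CLDN1 (222549_at) read 607 and 481 in H9 and 706 and 487 in HUES8, and CLDN10 read 1013 and 824 in H9 and 700 and 1068 in HUES8. CLDN6 (237810_at) read 4047 and 3751 in H9 and 4997 and 5762 in HUES8, and TJP1 (202011_at) read 2609 and 2929 in H9 and 2842 and 3003 in HUES8. These 4 overlapped H1 day 0 in at least 1 of the lines and were not called. In H9 against H1 day 0, 2 probe sets were called higher, both of OCLN, beside 4.27% of all probe sets called. Of these, the dim 235937_at had no present call in H9 or on H1 day 0. OCLN probe set 209925_at read 545 and 610 in H9 against 284 and 308 in H1, a difference of 0.96 ± 0.25 (1.95-fold, adjusted p = 0.035). This call was lost without any one of the 4 replicates, at adjusted p values from 0.11 to 0.19. The bright probe set 227492_at read 11419 and 9871 in H9, above both H1 arrays, with a difference of 0.65 ± 0.19 (adjusted p = 0.058). HUES8 against H1 had 1 call, the dim OCLN probe set, beside 0.177% of all probe sets. HUES8 against H9 had 0 calls among the 15 by limma, beside 2.41% of all probe sets, and 4 passed an unadjusted p under 0.05 (2 higher and 2 lower). Its smallest adjusted p was 0.10, for OCLN probe set 227492_at (−0.62 ± 0.19).

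Other junction genes were taken from lists and are given on day 10 against day 0 by 1 probe set per gene, the brightest of those not of a design type that can bind related transcripts, or the brightest of that type where a gene had no other. Their counts stand beside 11.3% of all probe sets called higher and 10.4% called lower on that day. With the brightest probe set of any type, an alternative chosen after seeing the data, the counts of the 6 junction and regulator lists were the same. Of 15 other claudins, 4 were measured above the filter, and 1 of these rose. CLDN8, a claudin of kidney and gut epithelia, read 199 and 219 on day 10 and had no present call on day 0 at 45.9 and 28.03, which is at least 5.77-fold higher (adjusted p = 0.047). Of 9 further junction membrane proteins measured, 1 rose and 1 fell. EPCAM, an epithelial adhesion protein that binds CLDN7, rose from 3684 and 3984 to 10205 and 8900 (1.31 ± 0.19, adjusted p = 3.9e-05). CXADR, an adhesion protein of the junction, went from 11064 and 11838 to 5706 and 5388 (−1.05 ± 0.19, adjusted p = 0.00054). The median of the 9 was −0.19.

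Plaque proteins, which lie under the junction membrane, moved both ways: of 11 measured, 4 rose and 2 fell, beside 11.3% and 10.4% of all probe sets. AMOTL2, an angiomotin family scaffold, rose by 1.34 ± 0.21 and MAGI3, a membrane scaffold, by 1.17 ± 0.35 (adjusted p = 0.00011 and 0.020). TJP3, a paralog of TJP1, was at least 2.36-fold higher (adjusted p = 0.046) from 72.8 and 56.2, not present, to 142.2 and 160.5. CGNL1, paracingulin, which links junctions to actin regulators, fell by 1.97 with an SE of 0.29 (adjusted p = 4.6e-05), from 3829 and 4782 to 952 and 1262. A second MAGI3 probe set, not present on either day, gave −0.14 (adjusted p = 0.85). Of 12 polarity proteins measured, 3 rose and 0 fell by limma, and 2 were lower at an unadjusted p under 0.05. The share of all probe sets called higher was 11.3%. The 3 were PATJ (2.18 ± 0.71), PALS1 (0.93 ± 0.21) and PARD6B (0.81 ± 0.27), with adjusted p values of 0.033, 0.0031 and 0.036. The PATJ probe set was dim and present on 1 of 2 day 0 arrays, and the brighter 223681_s_at, present on all 4, gave 1.26 ± 0.27 (2.39-fold, adjusted p = 0.0021). For PRKCI, an atypical protein kinase C of the Par complex, the probe set used was not called (−0.73 ± 0.26, adjusted p = 0.053), while 209677_at was called lower (−1.38 ± 0.37, adjusted p = 0.010) and the brighter 209678_s_at was not (−0.40, adjusted p = 0.22). PATJ and PALS1 belong to the Crumbs complex and PARD6B to the Par complex of the apical side. The medians of the plaque and polarity lists were 0.37 and 0.05, beside 0.03 over all probe sets.

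Of 10 epithelial transcription and splicing regulators measured, 5 rose and 0 fell by limma, with a median of 1.15, and 0 were lower at an unadjusted p under 0.05. Over all probe sets, 11.3% were called higher and 10.4% lower on day 10. GRHL1, a grainyhead factor, rose by 3.46 ± 0.38 (adjusted p = 8.9e-07), from 349 and 473 on day 0 to 3796 and 5289 on day 10, and was already at 3384 and 1545 on day 3. GRHL2, a grainyhead factor known in mouse epithelia to bind and activate claudin genes, rose by 1.60 ± 0.28 (adjusted p = 0.00036). ELF3, of the ETS family and typical of epithelia, went up at least 10.6-fold (adjusted p = 0.00029) by probe set 229842_at. Its probe set 210827_s_at, present on 1 day 0 array, gave 3.43-fold (1.78 ± 0.26, adjusted p = 4.7e-05). KLF5, a factor of proliferating epithelia, rose by 1.93 ± 0.63 (adjusted p = 0.032), and by 2.19 ± 0.39 with its brighter probe set 209212_s_at (adjusted p = 0.00034). Of 6 repressors of epithelial genes measured, 0 were called on day 10 by limma, and 1 was lower at an unadjusted p under 0.05. The closest were TWIST2 (−1.60 ± 0.77, adjusted p = 0.15), present on neither day, and SNAI2 (1.70 ± 0.84, adjusted p = 0.17), present on 1 of the 4 arrays.

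**Figure D3:**
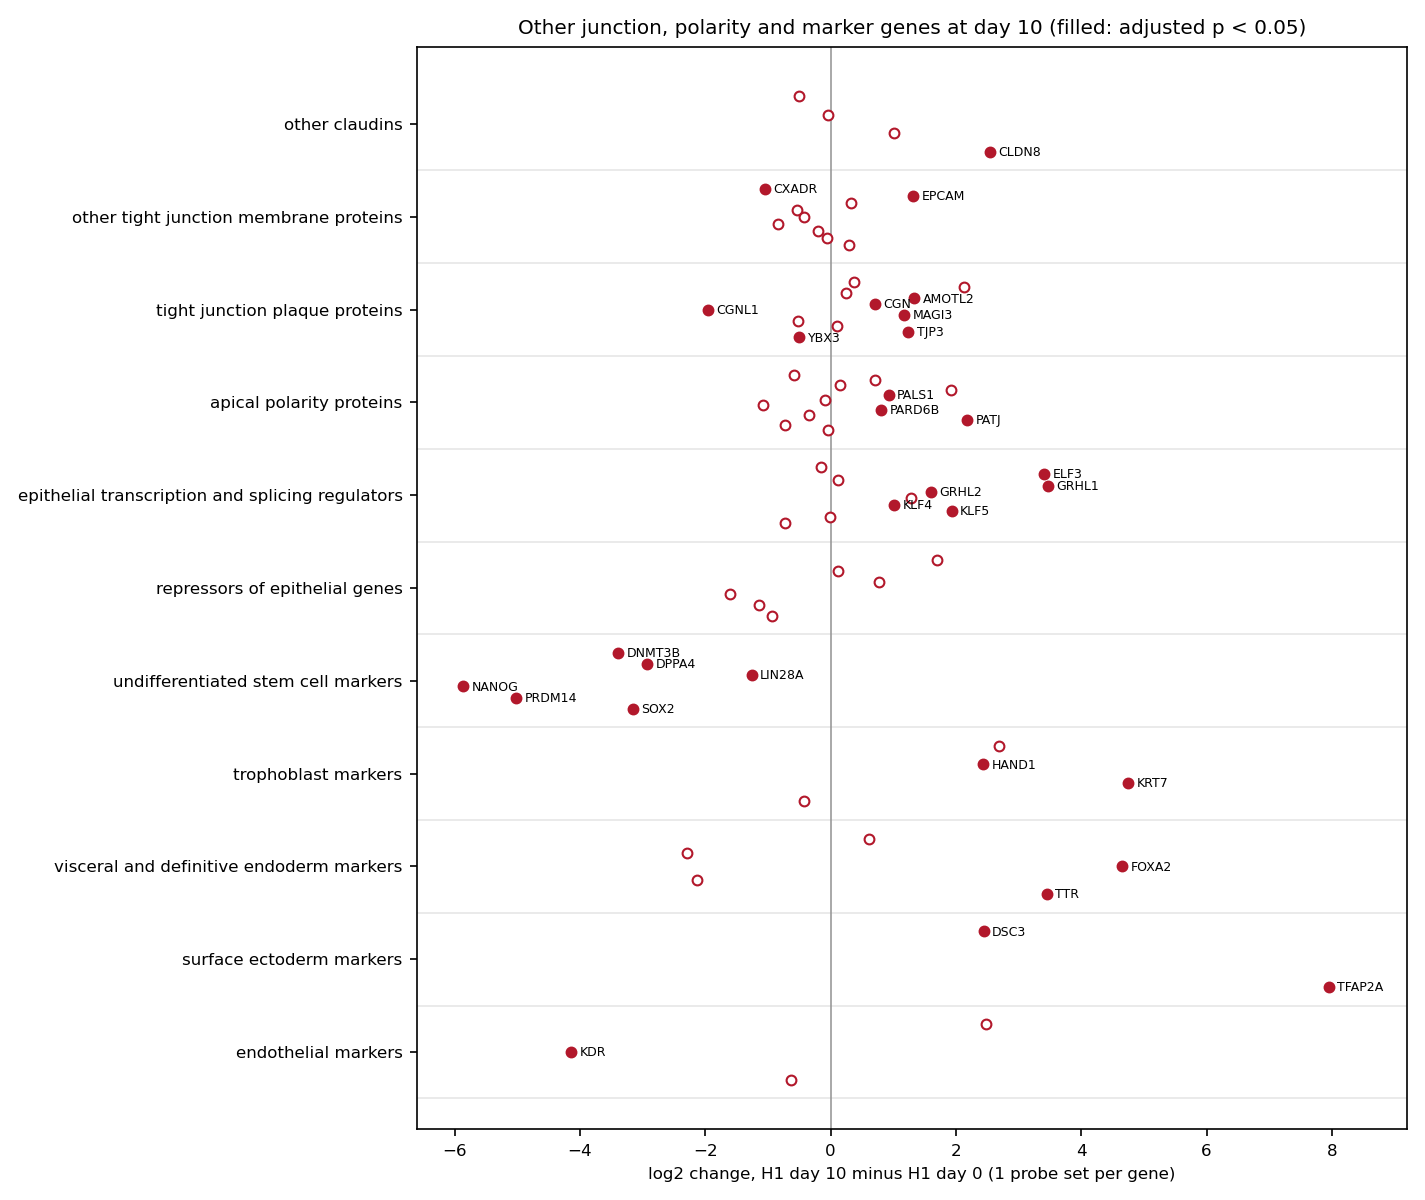
Difference between H1 day 10 and day 0 (log2 scale) for the genes of 11 lists, each point being the probe set taken for a gene and filled points having an adjusted p under 0.05. Genes not above background are drawn at their fitted value, which is no bound. GRHL1 at 3.46 lies right of the zero line with the other called epithelial regulators, while all 6 stem cell markers lie left of it.

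Markers of several cell types also differed between day 0 and day 10, counted and summed over the same choice of 1 probe set per gene. The day 10 counts stand beside 11.3% of all probe sets called higher and 10.4% called lower. All 6 stem cell markers measured were called lower on day 10 than on day 0. Their summed signal, weighted to the brightest probe sets, did not fall from the start. It was 41861 to 43388 on day 0, 64124 to 67401 on day 1, 44048 to 52251 on day 3 and 6737 to 8147 on day 10. The markers did not move alike, with a median difference of −0.29 on day 3. DNMT3B read 10035 and 10320 on day 0 and 16831 and 19883 on day 3. NANOG went from 6017 and 4599 to 2074 and 2330 over the same days. The sum leaves out DPPA4 232985_s_at, whose mean log2 signal on day 0 was 15.8. Of 4 trophoblast markers measured, 2 rose, KRT7 (at least 26.8-fold) and HAND1 (2.43 ± 0.60). The summed signal of the 4 probe sets taken went from 174 to 207 on day 0 through 2952 to 3094 on day 5 to 1199 to 2043 on day 10. On day 5 KRT7 read 1863 and 1750 and HAND1 read 1054 and 989, which made most of that sum. GATA3 and VGLL1, both trophoblast regulators, were not called by the probe sets taken (adjusted p = 0.059 and 0.83), but both rose by others. GATA3 was at least 49.7-fold higher by 209604_s_at and at least 5.67-fold by 209602_s_at, and VGLL1 at least 20.8-fold by 215729_s_at and at least 10.8-fold by 205487_s_at. The summed signal leaves these other probe sets out, so its course depends on the probe sets taken. Among them, GATA3 209604_s_at had a mean log2 signal of 11.8 on day 10. With the brightest probe set of any type all 4 trophoblast markers measured rose. CGA and CDX2, also on the trophoblast list, did not pass the filter. Both surface ectoderm markers measured rose, TFAP2A (at least 82.4-fold by 204653_at, at least 6.86-fold by 204654_s_at, and not called by 210669_at, adjusted p = 0.10) and DSC3 (at least 5.43-fold by 206032_at, at least 6.15-fold by 206033_s_at, and not called by 244107_at, adjusted p = 0.33). Their sum went from 66.5 to 85.9 on day 0 to 2997 to 3701 on day 10, when TFAP2A alone read 3128 and 2794. KRT5 and KRT14, which define stratified epithelium, did not pass the filter, and TP63 had no probe set assigned to it alone. Of 5 endoderm markers measured, 2 rose, FOXA2 (at least 8.98-fold) and TTR (at least 10.9-fold), and APOA1 did not pass the filter. AFP was present on at least 1 array of day 0 and of day 10 and was not called on day 10. SOX17 had no present call on day 0 or day 10, but was present on at least 1 array of day 9 and of H9. CXCR4 went from present on both day 0 arrays to neither on day 10 (−2.29 ± 0.93, adjusted p = 0.088), and its 2 other probe sets, present on none of these arrays, were called lower (−1.78 and −2.79). The sum went from 488 to 544 to between 1173 and 2184. The 3 endothelial markers measured were KDR, CDH5 and TEK, while PECAM1 and VWF did not pass the filter. KDR was called lower on day 10 (at least 17.7-fold), and 1 of the 3 was higher at an unadjusted p under 0.05 by limma. On each of days 4 to 8, 1 was called higher, when 6.40% to 13.9% of all probe sets were called. CDH5 was present at neither end, but on at least 1 array of each day from 3 to 8. The sum went from 1126 to 1306 to between 338 and 514. The part of these cell types in the rise of CLDN3 and CLDN4 was not tested.

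The genes whose time courses were most like each claudin were sought among probe sets whose 13 group means span at least 1 on the log2 scale. For CLDN4 they were ISL1 (r = 0.99), GATA6 (r = 0.98) and ID2 (r = 0.98). For CLDN3 they were MUC15, FBLN1 and RCSD1 (r = 0.98, 0.98 and 0.97), for CLDN1 PLAAT3, CLIC4 and COMMD7 (r = 0.97, 0.96 and 0.95), and for CLDN7 SNX3, RARA and IRF9 (r = 0.94, 0.94 and 0.93). For CLDN10 they were ALYREF, MASTL and ASL, each at r = 0.92, and for CLDN6 FKBP1A, UQCRC1 and H2BC5 (r = 0.92, 0.90 and 0.89). For OCLN they were GLTP, SFN and SRSF6 (r = 0.96, 0.94 and 0.94), and for TJP1 PHF20L1, RAP1A and NBN (r = 0.90, 0.88 and 0.84). The correlations run over 13 group means from the same arrays, were picked as the highest, and are given as descriptions.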

How the data were processed

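Total RNA of 26 samples was hybridised to the A and B chips of the HG-U133 array set. Per the submitters' processing notes, signals were made with MAS5; the deposited intensity values are linear and scaled to a common trimmed mean (from the values, 2% trimmed at each end), and the deposited detection p-value of each probe set gave the present calls. The version and other settings are not given in the sources used here. A second copy of the signals was only compared with the first (largest relative difference 5.0e-06) and did not enter the fits. The 52 columns of deposited detection calls were not used. Gene names came from the platform annotation, updated by gene ID for 34454 of the 34491 probe sets with 1 gene; 1597 with several genes and 8704 with none were left out.

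Here limma 3.58.1 (R 4.3.3) was run on log2 signals, chip by chip, taking 1 mean per group and all 13 groups sharing the spread (13 residual degrees of freedom, prior degrees of freedom 6.81 and 8.19), and adjusted over both chips for each comparison. The number of arrays limits the precision. The fit was tested on simulated data. Alternatives changed the filter, the scaling, the log scale, the intensity trend, the samples in the fit, the probe sets per gene, and left out replicates. A level not above background on either array of a group was given as a bound, using the higher of the probe set's own signal and the lowest present signal of the array. Such a bound is taken from the mean signals and does not cover the spread between replicates. Whether replicate numbers pair samples was checked by correlating the deviations of same-numbered H1 samples. These correlated above 0.1 in 32 of 55 pairs on the A chip and 23 of 55 on the B chip. Between neighbouring days the median was 0.19 and 0.15 and the lowest 0.045 and 0.058, so same-numbered H1 samples shared some deviation. The labels do not say that numbers pair samples, and the main fit did not take them as pairs. With a replicate block, run as an alternative, 2863 probe sets were called higher and 2726 lower on day 10, against 2426 and 2240. Named genes were all member probe sets, per list up to 4 called genes by size of change on day 10 or else up to 2 with the smallest p, and the 3 genes most alike for each member. The members and lists were chosen with earlier results of these data known.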

Additional observations from a re-analysis of the deposited data

How the results depend on the processing

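Single differences were recomputed 622 times under the alternatives. Of these values 537 kept direction and side of the threshold, 74 were no longer called, 2 became called and 9 changed sign. All 39 called differences of the 15 probe sets kept their direction. The 9 were uncalled day 10 differences from day 0. With quantile normalization OCLN 209925_at gave −0.048 and TJP1 214168_s_at −0.031. With the ACTB 3′ to 5′ ratio as a covariate OCLN 209925_at gave −0.37, TJP1 202011_at −0.18 and CLDN1 218182_s_at 1.83. CLDN1 218182_s_at gave 1.17 without day 0 replicate 2 and 0.80 without day 10 replicate 1, and TJP1 214168_s_at gave −0.13 without day 0 replicate 1 and −0.23 without day 10 replicate 2. Over all replicates left out the ranges were −1.36 to 1.17 and −0.23 to 0.26. The cause was not tested.

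Counts of called probe sets among the 15 moved as follows. Requiring a present call on at least 4 arrays, which drops the dim OCLN probe set, and taking 1 probe set per gene, gave 0 on days 1 and 2 and in HUES8 against H1, and 1 on days 3 and 4. The same counts resulted when only the compared groups entered the fit, which also gave 1 for day 10 against day 5. Taking 1 probe set per gene gave 2 on days 6, 7 and 8, 3 on day 9 and 0 in H9 against H1. Without the filter and with centring on 100 control probe sets the count was 2 on day 6 and 1 in H9 against H1, and the stricter filter gave 1 there too. The ACTB covariate gave 2 on day 2. Leaving out replicates gave 1 to 2 on day 1, 0 to 1 on day 2, 1 to 2 on day 3, 1 to 3 on day 4, 1 to 2 on day 5, 2 to 3 on day 6, 3 to 7 on day 10, 1 in H9 against H1, and 0 to 1 in HUES8 against either line. With the replicate block the count was 2 on day 2 and 8 on day 10, where CLDN6 237810_at became called (adjusted p = 0.037), as it also did with 1 probe set per gene (adjusted p = 0.049); the replicate numbers are not known to pair samples. With the brightest probe set of any type, chosen after seeing the data, 4 trophoblast markers were called higher in place of 2 and 1 endoderm marker lower in place of 0. Centring on controls moved the median of all probe sets on day 10 from 0.03 to 0.14. With the ACTB covariate 1191 probe sets were called higher and 1301 lower on day 10, against 2426 and 2240.

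Signals near background limit CLDN3, CLDN4 and OCLN 235937_at on day 0, where differences are bounds or have no order, and 2 replicates per group limit all tests.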
